A study of Homo sapiens with 4 samples.

Results

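Sodium-proton exchange and bicarbonate handling were followed here through 8 genes: the sodium-proton exchangers SLC9A2 and SLC9A3, the exchanger scaffolds SLC9A3R1 and SLC9A3R2, the sodium-bicarbonate cotransporter SLC4A4, and the carbonic anhydrases CA2, CA4 and CA12. They were taken by name from the gene names of the array, each was measured by 1 probe, and they make up 8 of 25992 gene names and 8 of 34127 probes. Gene expression was measured on 4 Agilent one-color arrays in normoglycemic human proximal tubular cells (HPTCs). After 24 h of starvation of serum and supplements, all cells received the proinflammatory cytokine IL-1β (10 ng/mL) together with Empa (500 nM), a drug that inhibits the sodium-glucose transporter SGLT2, for another 24 h. The labels place replicates 1 and 2, called H1 and H2 in what follows, in HK-2, a line immortalized with papillomavirus genes and kept at 5.8 mmol/L glucose, and replicates 1 and 2, called R1 and R2, in RPTEC/TERT1, a line immortalized with telomerase and kept at 5 mmol/L glucose. Each line is a single established line, and the methods describe the duplicates as biological. An SD or SE between arrays thus covers cultures as labelled, and not people. The error of a single spot covers the measurement on its array alone and not the spread between cultures. Untreated cells and IL-1β without Empa were not analysed here. All 4 arrays thus carry both agents, and the values are levels under the combination, not responses to either agent.

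The proximal tubule reclaims most filtered bicarbonate. Protons leave the cell into the tubular fluid through the sodium-proton exchanger NHE3, the product of SLC9A3, and turn filtered bicarbonate into carbon dioxide and water. Carbonic anhydrases speed this reaction on the brush border and its reverse inside the cell, and the cotransporter NBCe1, the product of SLC4A4, carries the bicarbonate with sodium across the basolateral membrane. The scaffolds NHERF1 and NHERF2, products of SLC9A3R1 and SLC9A3R2, hold NHE3 and other membrane proteins at the cell cortex.

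The 4 arrays did not pair as their labels do, which bears on every comparison that follows. Across the 17928 genes that any array measured well above background, the levels of H1 correlated with those of R2 at r = 0.980, and those of H2 with R1 at r = 0.976. The 2 arrays labelled HK-2 correlated at 0.865, the 2 labelled RPTEC/TERT1 at 0.855, and arrays that share a replicate number at 0.861 and 0.875. These are correlations across genes, which are not independent replicates, on arrays of 1 design. CDKN2A, a cell cycle inhibitor gene, followed the same division, with levels of 0.29 and 4.17 on the 2 arrays labelled HK-2 and 4.05 and 0.20 on the 2 labelled RPTEC/TERT1, in replicate order. TERT, well above background on 3 arrays, had low levels of -4.05, -4.36, -3.62 and -4.67 on H1, H2, R1 and R2, higher in replicate 1 than in replicate 2 of each label. A level is the log2 of the processed signal, the background-corrected spot brightness, over the 75th percentile of its array, and the lowest level used is -5.37. The arrays are therefore described one at a time and by their labels. Both replicate 1 arrays were scanned on 1 date and both replicate 2 arrays on another, so scan date and replicate number cannot be told apart.

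As a check of the cell type, 6 of 16 proximal tubule markers were well above background on all 4 arrays (LRP2, GGT1, SLC5A2, SLC22A8, PAX8 and MME), against 53% of all gene names. On none were 5 (CUBN, SLC5A1, SLC22A6, HNF4A and ALPL), against 29.9%. The first count lay below its share, so it does not by itself mark the cell type. The same 53% stands beside the counts of other markers below. ANPEP, a brush border peptidase, had levels of 0.49 and 0.47 on H1 and R2 and lay at the floor on the other 2 arrays. CDH1, the epithelial cadherin, was likewise at the floor on H2 and R1. The summed signal of the 16 markers was 2092, 459.8, 833.7 and 1715% of the 75th percentile on H1, H2, R1 and R2, that of 5 fibroblast markers 13.8, 77.3, 67.0 and 12.9%, and that of 4 leukocyte markers 93.6, 141.8, 187.4 and 87.7%. DCN, a matrix proteoglycan gene, was the fibroblast marker behind the higher sums. Most of the sum of the 16 markers came from PAX8, with levels of 4.1, 1.6, 2.8 and 3.7 on H1, H2, R1 and R2. Most of the leukocyte sum came from CD68, with levels of -0.49, 0.15, 0.62 and -0.54. These sums therefore mainly follow single genes. Of the markers of other kinds, 3 of 4 for epithelium, 1 of 4 for thick limb and distal tubule, 1 of 6 for collecting duct, 0 of 5 for fibroblasts, 1 of 3 for endothelium and 3 of 4 for leukocytes (PTPRC, CD68 and CD14) were well above background on all 4 arrays. The part of these differences in the levels of the 8 genes was not tested. In RNA pooled over a culture, fewer cells of a type and less RNA per cell cannot be told apart.

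Of the 8 genes, SLC9A3R1, SLC9A3R2, SLC4A4 and CA2 were well above background on all 4 arrays (4 of 8, against 53% of all gene names). SLC9A2, SLC9A3 and CA4 were well above background on none (3 of 8, against 29.9%), and CA12 on 2 of the 4 arrays (1 of 8, against 17.1%). No probe of these genes was saturated or marked as an outlier. Across whole arrays, 59.2 to 64.9% of spots were well above background, and the dimmest spot so marked had a processed signal of 4.39 to 10.3.

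The windows upstream of 3 of these genes are shown because the levels of SLC9A3R1 and SLC9A3R2, scaled to each array, were both higher on H1 and R2, while CA12 was measured only on the other 2 arrays. Each window holds the 250 bases before the start of the gene in RefSeq (GRCh38.p14), written 5′ to 3′ on the strand of the gene. They lie at chr17:74748378-74748627 (plus strand, SLC9A3R1, listed there as NHERF1), chr16:2026652-2026901 (plus strand, SLC9A3R2, listed as NHERF2) and chr15:63381847-63382096 (minus strand, CA12). Capitals mark every match, on either strand, to a GC box (GGGCGG) or a CCAAT box (CCAAT).
SLC9A3R1: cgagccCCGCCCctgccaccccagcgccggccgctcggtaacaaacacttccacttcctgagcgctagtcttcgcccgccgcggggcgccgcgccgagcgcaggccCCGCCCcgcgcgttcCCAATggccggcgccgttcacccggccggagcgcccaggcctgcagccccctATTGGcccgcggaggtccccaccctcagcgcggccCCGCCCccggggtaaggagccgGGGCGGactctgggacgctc
SLC9A3R2: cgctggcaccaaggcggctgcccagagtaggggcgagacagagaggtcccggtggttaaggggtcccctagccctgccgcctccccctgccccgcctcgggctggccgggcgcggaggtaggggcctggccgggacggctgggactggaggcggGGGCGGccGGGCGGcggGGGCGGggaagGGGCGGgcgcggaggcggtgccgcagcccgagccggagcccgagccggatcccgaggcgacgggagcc
CA12: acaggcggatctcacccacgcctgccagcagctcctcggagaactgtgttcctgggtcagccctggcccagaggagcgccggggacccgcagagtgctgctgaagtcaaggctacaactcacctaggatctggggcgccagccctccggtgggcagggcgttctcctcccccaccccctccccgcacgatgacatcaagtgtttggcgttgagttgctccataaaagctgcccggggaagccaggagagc

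The window of SLC9A3R1 holds 4 GC boxes and 2 CCAAT boxes at 77.6% G and C, and that of SLC9A3R2 holds 4 GC boxes and no CCAAT box at 80.0%. The window of CA12, at 64.8%, holds no match to either. The median over all 35116 windows of the table is 58.0% G and C, 42.6% of them hold a GC box and 32.0% a CCAAT box. Searched in the same way, TATAAA (in 10.7% of all windows), the NF-κB motif (GGGA, any base, then TTTCC, 0.527%) and the core of the hypoxia element, ACGTG (18.5%), had no match in these 3 windows. The window of SLC9A3, whose probe was not well above background on any array, lies at chr5:524450-524699 and holds 6 GC boxes at 82.0%. A match describes the letters only, and no measurement of binding was made.

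Neither exchanger gene gave a signal that the scanner software marked as above background. SLC9A3 was read by probe A_23_P30582 (GRCh37, chr5:479952-480011, minus strand). Its processed signal, with the error that Feature Extraction assigns to a single spot, was -2.04 ± 3.75 on H1, -1.44 ± 5.07 on H2, -1.33 ± 2.93 on R1 and -3.98 ± 3.31 on R2. All 4 values were below 0, that is, at or under the fitted background. SLC9A2, which encodes the exchanger NHE2, was read by probe A_33_P3261019 (chr2:103327743-103327802, plus strand). Its signals were 4.00 ± 3.74, 0.42 ± 4.72, -0.25 ± 2.61 and 1.92 ± 3.13 in the same order of arrays. Only the first exceeded its own error, and it was below the 9.5 of the dimmest spot marked on that array. Transcript of either gene was therefore not detectable with these probes, which sets a limit on signal and does not show that it was absent, and no fold between arrays is given.

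The 2 scaffold genes were measured on every array, and their scaled levels ran in the same direction across them. SLC9A3R1 (probe A_33_P3378835, chr17:72765312-72765371) had processed signals of 1058 ± 106 and 1315 ± 132 on H1 and H2, and 932.4 ± 93.3 and 1287 ± 129 on R1 and R2. Relative to the 75th percentile of each array, which was 393.3, 747.5, 488.3 and 428.6, these were 268.9, 175.9, 190.9 and 300.2%. H1 and R2 were thus the higher arrays after scaling, and the 2 cell line labels overlapped. Before scaling H2 had the highest signal of the 4, so its place among the lower arrays came with the division by its larger 75th percentile. The gap within a label was 0.61 ± 0.20 on the log2 scale (1.53-fold) in HK-2 and 0.65 ± 0.20 (1.57-fold) in RPTEC/TERT1, where the error combines the scanner's errors of both spots. Between the 2 higher arrays the difference was 0.16 ± 0.20 and between the 2 lower arrays 0.12 ± 0.20, both within that error.

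SLC9A3R2 (probe A_24_P364838, chr16:2088290-2088349) gave processed signals of 290.9 ± 29.4, 286.6 ± 29.3, 141.6 ± 14.5 and 351.3 ± 35.3 on H1, H2, R1 and R2. After scaling these were 74.0, 38.3, 29.0 and 82.0% of the 75th percentile. The same 2 arrays as for SLC9A3R1 were the higher ones, with a wider gap. H1 exceeded H2 by 0.95 ± 0.21 (1.93-fold), and R2 exceeded R1 by 1.5 ± 0.21 (2.83-fold). The 2 higher arrays differed by 0.15 ± 0.21, within the scanner's error, and the 2 lower arrays by 0.40 ± 0.21. The unscaled signals of the 2 HK-2 arrays were nearly equal, so their gap came with the scaling to arrays of different overall brightness.

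SLC4A4 had the narrowest range of the 4 genes measured on every array, 0.73 on the log2 scale, beside 0.77 for SLC9A3R1, 1.5 for SLC9A3R2 and 1.99 for CA2. Its probe A_32_P358887 (chr4:72437442-72437501, plus strand) had processed signals of 81.7 ± 9.13, 175.7 ± 18.3, 159.0 ± 16.2 and 84.4 ± 9.09, or 20.8, 23.5, 32.6 and 19.7% of the 75th percentile, on H1, H2, R1 and R2. After scaling R1 was the highest array, by 0.73 ± 0.21 (1.65-fold) over R2 and by 0.47 ± 0.21 over H2. The other 3 arrays then lay close together. H2 exceeded H1 by 0.18 ± 0.22, and H1 exceeded R2 by 0.08 ± 0.22, both within the scanner's error. Before scaling H2 and R1 had the higher signals, with H2 the highest. The closeness of H2 to H1 and R2 thus came with the division by its larger 75th percentile.

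Among the carbonic anhydrases, the cytosolic enzyme CA2 was bright on all 4 arrays. Probe A_23_P8913 (chr8:86393210-86393269) gave processed signals of 607.7 ± 60.9 and 3410 ± 341 on H1 and H2, and 2824 ± 282 and 623.7 ± 62.4 on R1 and R2. In percent of the 75th percentile these were 154.5, 456.2, 578.3 and 145.5. H2 and R1 were the higher arrays, the reverse of the scaffold genes. The gap within a label was 1.56 ± 0.20 (2.95-fold) in HK-2 and 1.99 ± 0.20 (3.97-fold) in RPTEC/TERT1. The 2 lower arrays differed by 0.09 ± 0.20, within the scanner's error, and the 2 higher arrays by 0.34 ± 0.20.

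CA12, a membrane enzyme with its active site outside the cell, was measured on H2 and R1 and not on the other 2 arrays. Probe A_24_P330518 (chr15:63616499-63616558, minus strand) had processed signals of -0.92 ± 4.18, 475.1 ± 47.8, 252.6 ± 25.4 and -0.26 ± 3.63 on H1, H2, R1 and R2. On the 2 arrays that measured it, the signal was 63.6 and 51.7% of the 75th percentile, a difference of 0.30 ± 0.21. On the 2 others it was not well above background, so only bounds can be given. The signal on H2 was at least 26.3-fold that on H1, and the signal on R1 at least 36.3-fold that on R2, each against the dimmest scaled signal well above background on the dimmer array.

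CA4, the carbonic anhydrase anchored to the brush border membrane by a lipid, was not well above background on any array. Probe A_23_P4096 (chr17:58235472-58235686, a 60-base probe that covers 215 positions of the genome) had processed signals of 7.45 ± 3.46, 4.00 ± 4.46, 10.2 ± 2.80 and 15.0 ± 3.35. The 2 RPTEC/TERT1 arrays had the higher values, at 3.63 and 4.47 times their own error, against 2.16 and 0.898 times in HK-2. No probe of the 8 genes was placed in exons or introns, since an annotation of GRCh37 was not used here.

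**Figure D1:**
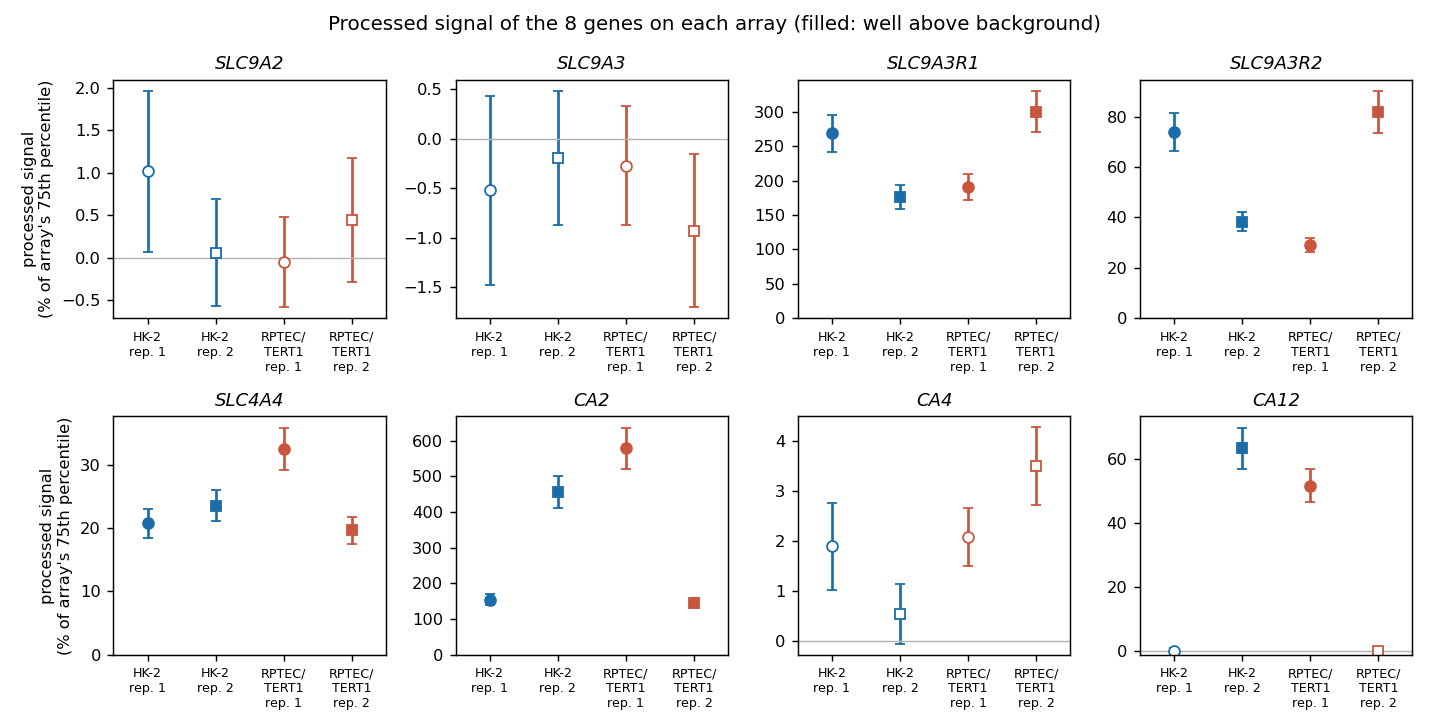
Processed signal of each of the 8 genes (y axis, percent of the 75th percentile of the array, with a scale of its own for each gene) on the 4 arrays named on the x axis (from left to right H1, H2, R1 and R2). Points are single arrays, bars are the error that Feature Extraction gives for 1 spot, circles are replicate 1, squares replicate 2, blue HK-2, red RPTEC/TERT1, and open points were not well above background. CA2 stood at 456.2 and 578.3% on H2 and R1 and at 154.5 and 145.5% on the other 2 arrays, and SLC9A3R2 showed the opposite order.

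The comparison of the 2 cell lines as labelled asks whether any of these genes differs between HK-2 and RPTEC/TERT1 under IL-1β and Empa. Fitted with limma over the 16473 genes that 2 or more arrays measured well above background, no gene was called at a Benjamini-Hochberg adjusted p of 0.05 (0 of 16473, 0%), and 23 genes (0.14%) had an unadjusted p under 0.05. Of the 8 genes, 5 passed that filter on dim genes and 0 of these 5 were called, nor did any have an unadjusted p under 0.05. CA12 passed through the 2 arrays where it was high. In 0 of the 5 genes did the levels of the 2 labels fail to overlap, against 7.18% of all genes tested (1182 genes).

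The differences, HK-2 minus RPTEC/TERT1, were small and their intervals wide. Each label averages an array from each of the closely correlated pairs, H1 with R2 and H2 with R1. For a gene that follows that division, such averaging makes the difference small and the spread large. The fit therefore cannot tell whether the lines differ, and a small difference here does not show that they are alike. SLC9A3R1 had mean levels of 1.12 ± 0.43 and 1.26 ± 0.46 (SD, n = 2 arrays each), a difference of -0.14 (SE 0.52, 95% interval -1.54 to 1.26). SLC9A3R2 had means of -0.91 ± 0.67 and -1.04 ± 1.06 and a difference of 0.13 (SE 0.74, interval -1.87 to 2.12). For both scaffolds the interval reached more than a doubling in either direction. SLC4A4 had means of -2.18 ± 0.13 and -1.98 ± 0.51 and a difference of -0.20 (SE 0.49, interval -1.52 to 1.13). CA2 had means of 1.41 ± 1.10 and 1.54 ± 1.41 and a difference of -0.13 (SE 0.96, interval -2.73 to 2.47). CA12, with 1 array of each label at the floor, had a difference of 0.15 (SE 2.25, interval -5.95 to 6.24), which is set by the floor and is no bound. The adjusted p of limma was 1 for each of the 5 genes. An exact permutation test of 2 arrays against 2, two-sided, gave p = 0.667 for SLC9A3R1 and p = 1 for the other 4, where the smallest p that this design allows is 0.333.

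Within a replicate number the same difference had opposite signs, as plotted for the 5 genes. In replicate 1, HK-2 was above RPTEC/TERT1 by 0.49 for SLC9A3R1 and 1.35 for SLC9A3R2, and the difference was -0.65 for SLC4A4 and -1.90 for CA2. In replicate 2 the values were -0.77, -1.10, 0.26 and 1.65. CA12 turned as well, from -4.42 to 4.72, both against an array at the floor. Each of these rests on 1 array against 1, without a test, and the share of all genes with opposite signs was not counted. The median difference over the 5 genes was -0.13, beside 0.02 over all 16473 genes, and its size without sign was 0.14 beside 0.13. Within replicate 1 it was -0.65 beside 0.12, and within replicate 2 0.26 beside -0.08.

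**Figure D2:**
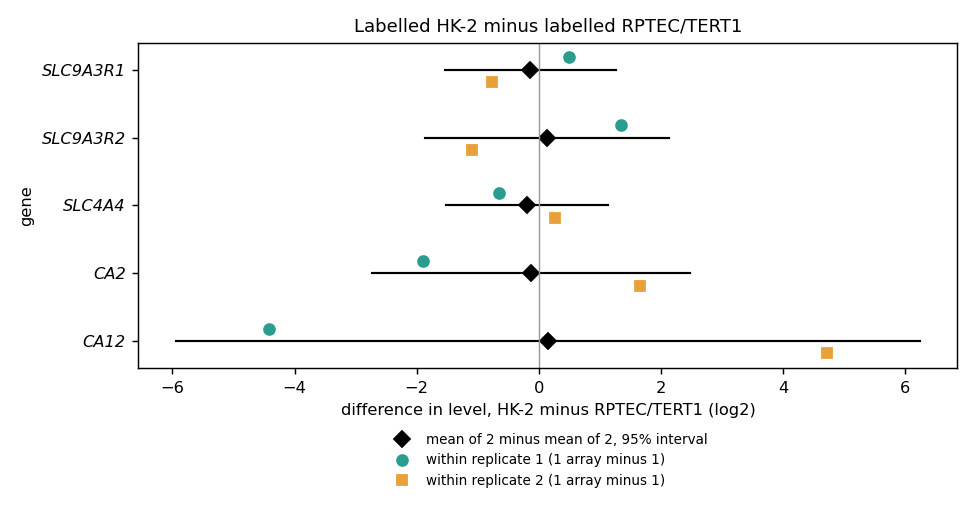
Difference in level, HK-2 minus RPTEC/TERT1 (x axis, log2), for the 5 genes that passed the filter on dim genes (y axis). Black diamonds are the means of 2 arrays minus the means of 2 with the 95% interval of the limma fit, and green circles and orange squares are single arrays of replicate 1 and of replicate 2. Each pair of colored points lies on opposite sides of 0, from -1.90 to 1.65 for CA2, and each interval spans 0.

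The levels on H1 depended on how the background was corrected, for the dim genes above all. With normexp correction of the mean spot signal, a model that separates signal from local background, CA12 was at -0.32 on this array and no longer at the floor, above its levels of -0.75, -0.93 and -3.04 on H2 and R1 and R2. On the same array the level of SLC4A4 was -0.26 in place of -2.27, and that of SLC9A3R1 0.59 in place of 1.43. SLC9A2, SLC9A3 and CA4, all dim, then lay at -0.31, -0.32 and -0.31. This array alone had spots with a very high local background. It was over 10 times the array's median of 39.0 at 7 spots and reached 48831, whereas the highest local background of the other 3 arrays was 46.0 to 54.0. With those 7 spots left out of the normexp fit, CA12 on H1 was -2.81, SLC4A4 -1.68 and SLC9A3R1 1.36, nearer to the levels from the processed signal.

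The log2 values that the authors deposited for the same spots also compressed this array. Centered on the 75th percentile, they put CA12 at -1.07, -0.74, -0.88 and -2.97 on H1, H2, R1 and R2. SLC4A4 was then highest on H1, at -0.79, against -1.72, -1.27 and -1.73. H1 and R2 stayed the higher arrays of SLC9A3R2, and the lower arrays of CA2, under all 4 treatments. For SLC9A3R1 this was lost with normexp correction of all spots, where H1 was the lowest array at 0.59, against 0.87 on H2, 0.94 on R1 and 1.52 on R2. The local background at the spots of the 8 genes themselves was 37.0 to 42.5 on that array.

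**Figure D3:**
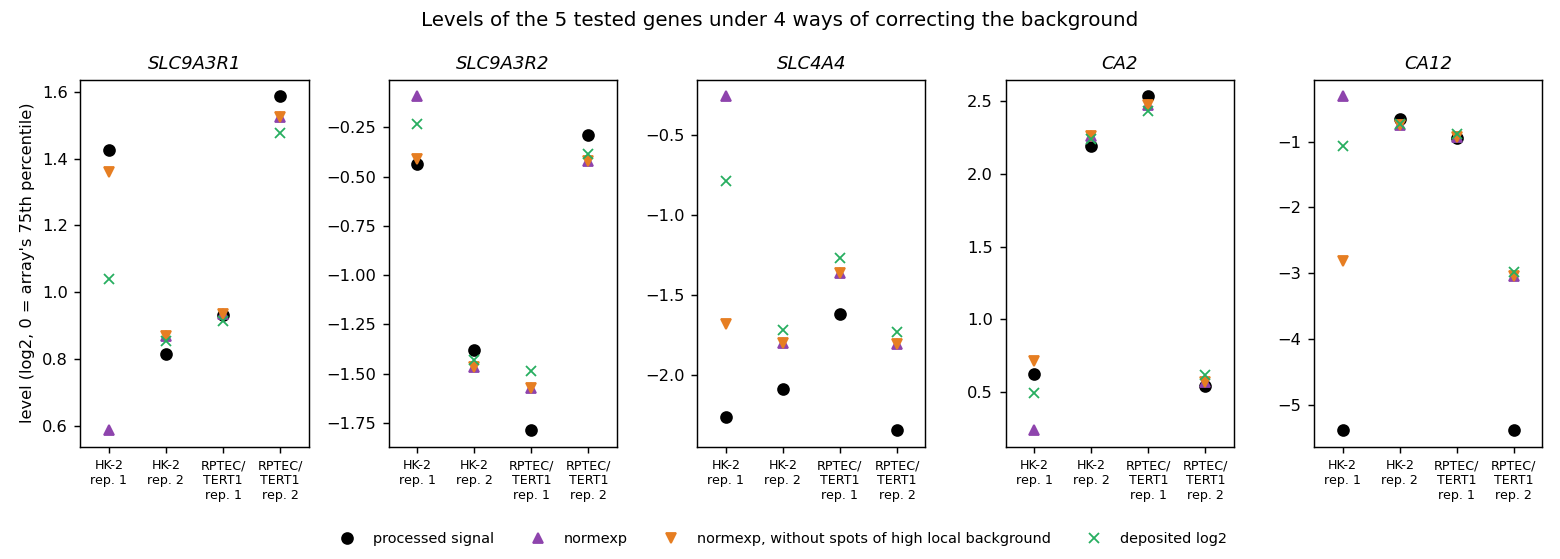
Level (y axis, log2, 0 is the 75th percentile of the array, with a scale of its own for each gene) of the 5 tested genes on the 4 arrays (x axis) from the processed signal (black circles), normexp correction (purple triangles), normexp fitted without the 7 spots of high local background (orange triangles) and the deposited log2 values (green crosses). Points are single arrays. The treatments part mainly on H1, where CA12 lay between -5.37 and -0.32, and there the orange point lies nearer to the black one than the purple point does in each of the 5 genes.

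Around these 8 genes, 80 further genes of acid-base handling were listed, of which 77 were on the array, 44 were well above background on all 4 arrays and 20 on none. Of the 50 that passed the filter on dim genes, 0 were called in either direction, and 3 had levels that did not overlap between the labels, all with HK-2 higher (3 of 50, against 4.36% of all genes tested in that direction). Among them was CA14, a membrane carbonic anhydrase (0.55, SE 0.44), measured on all 4 arrays. SLC38A3, a glutamine transporter, was another, with levels of -4.87 and -4.80 on H1 and H2 and the floor on both R1 and R2. It passed the filter only through the arrays where it was higher, so its difference is set by the floor. Both were named after their values were seen. None was lower without overlap, against 2.81% of all genes. The median difference over the 50 genes was 0.04.

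By family, 7 of the 9 other sodium-proton exchangers on the array were well above background throughout, and 2 on none. Of 17 bicarbonate and anion exchangers, 8 were well above background on all arrays and 5 on none, and of 12 other carbonic anhydrases 4 and 4. The remaining 4 genes of the carbonic anhydrase list, named after their values were seen, were measured on some arrays only. CA8 and CA10 were at the floor on H2 and R1 and had levels of -2.19 and -2.94, and of -2.04 and -2.33, on H1 and R2. CA11 had levels of -4.79, -1.75, -1.76 and -4.84 in the order of arrays used above, and CA9 was well above background on R1 alone. Among proteins that bind or regulate NHE3, 8 of 10 were measured on all 4 arrays. The sodium pump had 3 of 4 genes so measured, the proton pump 11 of 18, and the genes of ammonia formation and glutamine use 3 of 7.

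The 44 genes measured throughout had a median range of 1.14 over the 4 arrays, and 27 of them (61.4%) ranged over more than 1, beside a median of 0.97 and 48.2% of 13783 genes measured throughout outside the 8. The widest was FXYD2, the gamma subunit of the sodium pump, with levels of 5.46 and 2.05 on H1 and H2 and 1.15 and 5.50 on R1 and R2. PDZK1, a scaffold of the NHERF family, ran the other way from SLC9A3R1 and SLC9A3R2, with levels of -1.34, 1.52, 1.04 and -0.86. The mitochondrial enzyme PCK2 (-3.88, -1.58, -2.09 and -3.71) and the exchanger SLC9A5 (-3.63, -1.54, -1.69 and -3.66) were also higher on H2 and R1, like CA2.

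The sulfate transporter SLC26A2 (2.42, 0.23, 0.04 and 2.09) and the proton pump subunits ATP6V0E1 (4.77, 2.43, 2.36 and 4.74), ATP6V0A1 (3.84, 1.99, 2.37 and 3.75) and ATP6V1B2 (2.33, 0.46, 1.13 and 1.80) were higher on H1 and R2, like the NHERF scaffolds. CA6, the secreted carbonic anhydrase, had mean levels of -2.56, -1.5, -3.45 and -1.6, but its probes differed. The brighter had levels of 0.26, 0.07, -1.76 and 2.18, and the dimmer was at the floor on H1 and R2, at -3.07 on H2 and at -5.14 on R1, so neither followed the order of the mean.

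**Figure D4:**
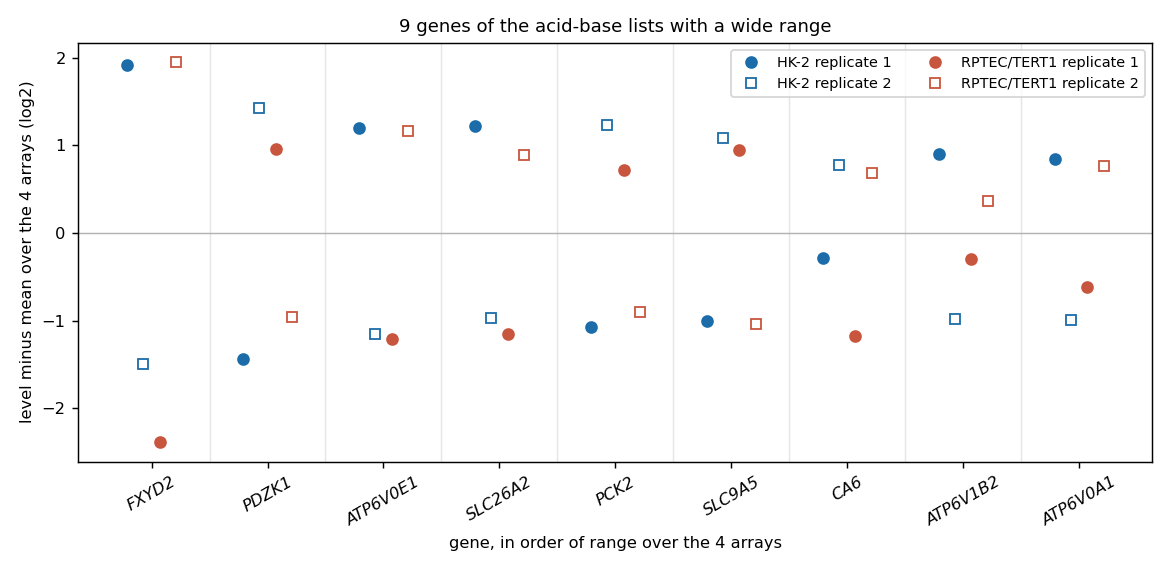
Level minus its mean over the 4 arrays (y axis, log2) of 9 of the 10 genes of the acid-base lists with the widest range among those well above background on every array (x axis, in order of range). Points are single arrays, in blue for HK-2 and red for RPTEC/TERT1, filled for replicate 1 and open for replicate 2. In 8 of these 9 genes H1 and R2 lie on one side of 0 and the other 2 arrays on the other, and CA6 is the exception. The arrays divide in the same way across all genes, and the share among other genes of wide range was not counted. The count is therefore not read as a trait of the acid-base genes.

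Genes whose pattern was nearest to a member were found by the Euclidean distance between levels centered on their mean, over the 4 arrays and 13783 genes. Nearest to CA2 were PFN2 (distance 0.03), which encodes the actin-binding protein profilin 2, TM7SF3 (0.04) and ZNF273 (0.05). PFN2 had levels of 0.34, 1.92, 2.29 and 0.28 on H1, H2, R1 and R2. Within a distance of 0.25 of CA2 lay 63 genes. Nearest to SLC9A3R2 were LSM1, an RNA decay factor gene (0.03), the kinesin gene KIF1C (0.05) and SAP30L (0.05), with 249 genes within 0.25. Nearest to SLC9A3R1 were C14orf28 (0.01), ZMAT5 (0.03) and FAM96A (0.03), with 588 genes within 0.25. With 4 arrays, near patterns are frequent, and the more so the narrower the range of the member.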

How the data were processed

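RNA from IL-1β- and Empa-stimulated HPTCs was hybridized to 4 one-color Agilent arrays, of which the labels assign 2 to each cell line. The labels name the RNeasy kit and the methods the innuPREP kit for RNA isolation. For each array the authors deposited spot intensity values on a linear scale from Feature Extraction 9.5.3.1 (per the file headers), background-subtracted and detrended but not scaled between arrays. A series table deposited by the authors holds log2 values of these spots, and how it was made is not stated in any source at hand. Their medians were 8.33 and 7.14 for HK-2 replicates 1 and 2, and 6.75 and 6.72 for RPTEC/TERT1 replicates 1 and 2, and they served as an alternative only. Whether they were centered or scaled is unknown, and their direction is that of the intensities.

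From the 43118 non-control spots, outlier spots (1.24 to 1.85% per array) were left out. The processed signal was divided by the array's 75th percentile, floored at 2.42% of it (each array's lowest scaled signal well above background was found, and the highest of the 4 used) and converted to log2. Probe values are means over spots, and a gene is the mean of its probes that had a value on every array and were well above background on at least 1. Probes spotted 10 times had a median SD of 0.08 to 0.14 (log2) within an array, and with 2 arrays per label their number limits the precision. HK-2 minus RPTEC/TERT1 was fitted with limma 3.58.1 (lmFit and eBayes, R 4.3.3), with Benjamini-Hochberg adjustment over all genes tested. This step was tested on simulated arrays with a small common spread and large planted changes, which checks the computation only. It does not show what the fit can call on these arrays, where the SD of CA2 within RPTEC/TERT1 was 1.41. Names are those of the array design. RefSeq (GRCh38.p14) lists the transcripts of all 8 probes, 2 under another current symbol, and 6 of the 8 genes had a promoter window in the RefSeq promoter table.

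Named are the 8 genes, the 10 genes of the acid-base lists with the widest range among those well above background on all arrays (any gene called would have been added), the 3 genes nearest in pattern to each of the 3 members with the widest range, the cell type markers, CDKN2A and TERT. Some of these genes are not reported here. The members and lists were chosen with earlier results of these data known. Alternatives were normexp correction (offset 50), with and without spots whose local background exceeded 10 times the array's median, the deposited log2 values, quantile normalization, scaling to the median of detected probes, outlier spots kept, other probe summaries, other filters, the replicate number as a block and each array left out. The deviations of same-numbered arrays from the means of their labels correlated at -0.784 over 17928 genes, so the numbers were not taken to pair the arrays.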

Additional observations from a re-analysis of the deposited data

Results flagged for a closer look

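The difference between the labelled cell lines had opposite signs in the 2 replicate numbers for each of the 5 genes tested, and the change of sign itself was not tested, since each value is 1 array minus 1. HK-2 minus RPTEC/TERT1 was 0.49 in replicate 1 and -0.77 in replicate 2 for SLC9A3R1, and 1.35 and -1.10 for SLC9A3R2. It was -0.65 and 0.26 for SLC4A4, and -1.90 and 1.65 for CA2. For CA12 it was -4.42 and 4.72, each against an array at the floor. The share of all genes with such a change of sign was not counted. Over 17928 genes, the deviations of same-numbered arrays from the means of their labels correlated at -0.784. The change of sign is therefore not read as a result about these 5 genes. Scan date and replicate number coincide on these arrays and cannot be told apart.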

How the results depend on the processing

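With limma, 0 genes, and 0 of the members tested, were called in each of 16 alternatives. The members tested were 5 of the 8 genes described here in most of them. They were 4 where all 4 arrays had to be well above background, and all 8 without a filter on dim genes. The number of genes with an unadjusted p under 0.05 was 3 to 241, apart from the crossed block. The replicate number as a block left 0 calls and 5 genes at an unadjusted p under 0.05, so it changed no call. The crossed pairing as a block, chosen after seeing the data, left 0 calls and 183 such genes. The lowest adjusted p of a member over its alternatives was 0.999.

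The median difference of the tested members, -0.13 in the report, was -0.65 within replicate 1, 0.26 within replicate 2, and -0.56 (without RPTEC/TERT1 replicate 2) to 0.17 (without RPTEC/TERT1 replicate 1) with 1 array left out. It was 0.22 with normexp correction and 0.11 with the deposited log2 values, where CA12 was 1.45 and 1.03 (0.15 in the report), and SLC9A3R1 was -0.50 with normexp (-0.14 in the report). In the fits with 1 array left out the lone array of a label is assumed to vary like the other label. Each member changed sign in them. SLC9A3R1 ranged from -0.46 to 0.19 and was above 0 without HK-2 replicate 2 or RPTEC/TERT1 replicate 2. CA12 ranged from -2.21 to 2.51 and was below 0 without the same arrays. SLC9A3R2 ranged from -0.62 to 0.88 and was below 0 without HK-2 replicate 1 or RPTEC/TERT1 replicate 1. CA2 ranged from -1.12 to 0.87 and was above 0 without the same arrays. SLC4A4 ranged from -0.56 to 0.17, was above 0 without RPTEC/TERT1 replicate 1, and was 0.56 with normexp correction and 0.25 with the deposited log2 values. With normexp fitted without the 7 spots of high local background on HK-2 replicate 1, added after seeing the data, it was -0.15. SLC9A2, SLC9A3 and CA4 were not well above background on any array. They were tested only without the filter on dim genes, where 0 of the 8 genes were called.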
